A study of Mus musculus with 3 samples.

Results

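The genes described here are those of glycolysis and of the response to low oxygen, measured in splenic tumours of male p53+/− mice. The list held 34 genes, chosen by name and function, with earlier results of these data already known. It comprised 16 glycolytic enzymes, 4 transporters of glucose or lactate, Hif1a and 13 further targets of hypoxia-inducible factor that are neither glycolytic enzymes nor transporters, called HIF-only targets below. All 34 were among the 22908 genes measured. All 34 were also well above background on at least 1 array, as were 15240 genes in all, and 33 of the 34 were so on all 3 arrays. The exception was Egln3.

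RNA was taken from splenic cells of mice aged 10 weeks, and 1 array was hybridised per tumour. The p53+/− genotype was represented by 1 tumour (the p53 tumour). The LSD1 × p53+/− genotype was represented by 2 tumours, numbered #2 and #3 in the labels and together called the LSD1 tumours. Both genotypes thus carry p53 in the +/− state, and no treatment was given. LSD1, a histone demethylase, is the product of Kdm1a. The labels do not state what the genotype's LSD1 component is, which promoter drives it, or whether its number names a line or a mouse. Normal spleen was not analysed here.

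Glycolysis splits glucose into pyruvate in the cytosol, and lactate dehydrogenase turns pyruvate into lactate when it is not passed to mitochondria. Dividing lymphoid and myeloid cells, and tumours made of them, are known for a high rate of this pathway even with oxygen present. HIF-1 is a transcription factor whose alpha subunit, encoded by Hif1a, is marked for destruction by oxygen-dependent prolyl hydroxylases, so its activity is set mainly through protein stability. It binds a core of A or G followed by CGTG and activates both glycolytic genes and genes of vessel growth, mitophagy, pH control and collagen hydroxylation. Glycolytic genes also answer to other factors, MYC among them, whereas HIF-only targets are often read as markers of the low oxygen response itself.

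Signals are log2 values relative to the 75th percentile of each array, so that a level of 0 is that percentile itself. A gene was read from its brightest probe, and levels are compared only between tumours, not between genes. Between 51.5% and 55.6% of the spots were well above background and no spot was saturated. With 1 array against 2, none of the 34 genes passed limma at an adjusted p of 0.05, nor did any of all genes tested (0.0%), and adjusted p was 0.967 or more throughout. Tpi1 alone had an unadjusted p under 0.05, where 1.15% of all genes had one in the upward and 2.58% in the downward direction. An exact permutation test of 1 against 2 arrays cannot give a p below 0.333. The comparisons below are therefore descriptions of 3 tumours, and ± values are the SD between the 2 LSD1 tumours. With 1 p53 tumour, the spread within that genotype is unknown.

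Most glycolytic enzymes had higher signal in both LSD1 tumours, whereas the direction of most HIF-only targets differed between the 2 tumours. In tumour #2, 4 of the 13 HIF-only targets were lower than in the p53 tumour (30.8%, against 47.0% of all genes tested). In tumour #3, 9 of the 13 were lower (69.2%, against 41.9%). Of the 16 enzymes, 11 (68.8%) were higher in both LSD1 tumours than in the p53 tumour, against 38.9% of all genes tested. The count was 10 with quantile normalization, 9 in the authors' value table and 12 with median centring. Aldoc and Ldhb (12.5%) were lower in both, against 27.8% of all genes. The median difference of the enzymes was 0.61 in tumour #2 and 0.68 in tumour #3, where the medians of all genes were 0.05 and 0.16. These enzyme medians became 0.33 and 0.37 with quantile normalization and 0.40 and 0.32 in the authors' value table. The medians of all genes moved too, to -0.016 and 0.047 with quantile normalization and to -0.16 and -0.20 in the authors' value table. Of the 13 HIF-only targets, Adm and Ankrd37 were higher in both, Vegfa and Ndrg1 were lower in both, and 7 (53.8%) were higher in tumour #2 and lower in tumour #3, a pattern shown by 14.1% of all genes. The other 2, Bnip3l and Car9, were lower in tumour #2 and higher in tumour #3, as were 19.3% of all genes. The HIF-only medians were 0.33 and -0.47, and they were 0.11 and -0.83 in the authors' value table, 0.21 and -0.43 with quantile normalization and 0.37 and -0.28 with median centring. The enzyme median thus exceeded the HIF-only median by 0.29 in tumour #2 and by 1.15 in tumour #3. The gap in tumour #2 was 0.12 with quantile normalization, 0.45 with normexp and 0.43 with the mean over probes.

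**Figure D1:**
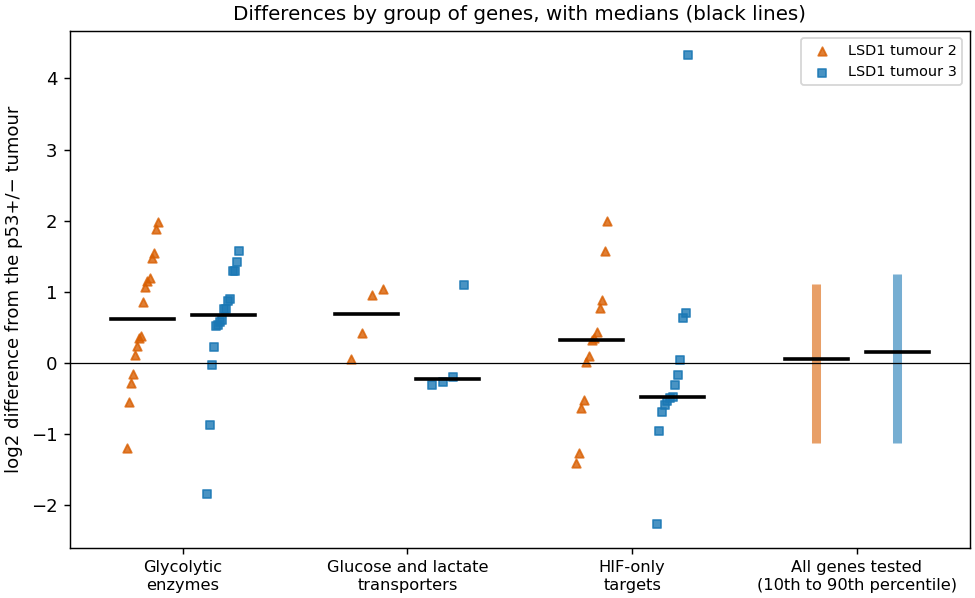
Log2 difference from the p53+/− tumour (vertical axis) for each glycolytic enzyme, transporter and HIF-only target in tumour #2 (triangles) and tumour #3 (squares), 1 array each, with group medians as black lines and, for all genes tested, bars from the 10th to the 90th percentile. The enzyme medians (0.61 and 0.68) lie on the same side of 0, while those of HIF-only targets (0.33 and -0.47) lie on opposite sides.

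Taking any size of difference, 8 of the 34 genes (23.5%) were lower in tumour #2 than in the p53 tumour and the others higher, where 47.0% of all genes tested were lower. In tumour #3, 16 were lower (47.1%), against 41.9% of all genes. By size, 2 of the 34 genes were at least 2-fold higher in both LSD1 tumours (5.88%, against 3.48% of all genes tested), namely Tpi1 and Gapdh. None was at least 2-fold lower in both (5.38% of all genes). In tumour #2 alone, 10 genes were at least 2-fold higher than in the p53 tumour (29.4%, against 11.7% of all genes) and 3 were at least 2-fold lower (8.82% against 11.5%). In tumour #3 these numbers were 6 (17.6% against 15.2%) and 2 (5.88% against 11.5%). The 10 in tumour #2 were 7 enzymes, the lactate exporter Slc16a3, Egln3 and Ddit4. Tumour #3 shared a slide with the p53 tumour and tumour #2 did not.

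The enzymes are taken in the order of the pathway. Hexokinases trap glucose in the cell by phosphorylation. Hk1, the widely expressed hexokinase, had levels of 2.91 in the p53 tumour, 3.14 in tumour #2 and 4.32 in tumour #3. Hk2, the inducible hexokinase of tumours and muscle, had levels of -1.81, -1.70 and -0.92. Both were thus highest in tumour #3, by 2.67-fold and 1.86-fold over the p53 tumour, and within 1.18-fold of the p53 tumour in tumour #2, where Hk2 was lower in the authors' value table. Gpi1, the isomerase that follows, had levels of 5.30, 5.66 and 5.27, and its direction in tumour #3 turned with median centring.

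Phosphofructokinase commits sugar to glycolysis and is assembled from liver, platelet and muscle subunits. Pfkl, the liver subunit, had levels of -0.62, 0.57 and -0.08 and was higher in both LSD1 tumours, by 2.29-fold and 1.45-fold. Pfkp, the platelet subunit, had levels of 1.35, 1.08 and 1.88. Pfkm, the muscle subunit, had levels of 1.13, 0.97 and 2.42. The last 2 subunits thus lay within 1.21-fold below the p53 tumour in tumour #2 and above it in tumour #3, Pfkm by 2.45-fold. Aldolase splits the 6-carbon sugar, and its isoforms went apart. Aldoa, the main isoform outside liver and brain, had levels of 5.76, 6.13 and 6.36 and was 1.30-fold and 1.52-fold higher. Aldoc, the brain isoform, had levels of 0.19, -0.999 and -0.68 and was 2.28-fold and 1.82-fold lower.

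The enzymes of the steps from the triose phosphates to lactate had higher signal in both LSD1 tumours, except Ldhb. Tpi1, which interconverts the triose phosphates, had a level of 2.98 in the p53 tumour, 4.86 in tumour #2 and 4.55 in tumour #3. It was 3.70-fold and 2.97-fold higher, a mean difference of 1.73 ± 0.22 (SD, n = 2) with a limma SE of 0.501 (limma, unadjusted p = 0.0359, adjusted p = 0.967). Gapdh, which couples triose oxidation to NADH and is often used as a reference gene, had levels of 5.58, 7.12 and 6.87. It was 2.91-fold and 2.45-fold higher, a mean difference of 1.42 ± 0.18 (SD, n = 2). In both genes the LSD1 tumours lay closer to each other than to the p53 tumour. The same was true of Aldoa, Aldoc, Pgk1, Pgam1, Ldha and Ankrd37, and the matching share of all genes was not counted. In the authors' value table this no longer held for Pgk1 (differences of 0.94 and 0.22) and Pgam1 (1.26 and 0.51). There it also failed for Ldha (0.85 and 0.40) and Ankrd37 (0.56 and 0.27). With quantile normalization it failed for Pgk1, Pgam1 and Ldha.

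Pgk1, the first enzyme of the pathway to yield ATP, had levels of 5.50, 6.65 and 6.09, which were 2.22-fold and 1.498-fold above the p53 tumour. Pgam1, the phosphoglycerate mutase, had levels of 2.73, 4.20 and 3.60, which were 2.77-fold and 1.83-fold above it. Eno1, the enolase, had levels of 4.89, 5.74 and 5.11 and was 1.81-fold and 1.17-fold higher, a value that turned in tumour #3 under quantile normalization or the authors' scaling. Pkm, the pyruvate kinase of most tissues outside liver and red cells, had levels of 3.82, 5.80 and 4.58 and was 3.95-fold and 1.69-fold higher. Every one of these 4 was higher in tumour #2 than in tumour #3. The mean difference was 0.87 ± 0.40 for Pgk1, 1.17 ± 0.42 for Pgam1, 0.54 ± 0.44 for Eno1 and 1.37 ± 0.87 for Pkm (SD, n = 2).

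Lactate dehydrogenase is a tetramer of A subunits, which favour lactate production, and B subunits, which favour its use. Ldha had levels of 5.95, 7.02 and 6.71 and was 2.10-fold and 1.70-fold higher in the LSD1 tumours (0.91 ± 0.22, SD, n = 2). Ldhb had levels of 0.06, -0.48 and -1.78 and was 1.46-fold and 3.58-fold lower (-1.19 ± 0.92, SD, n = 2). The A and B subunits thus differed in opposite directions in both LSD1 tumours, a difference of signs that held under every scaling tried.

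**Figure D2:**
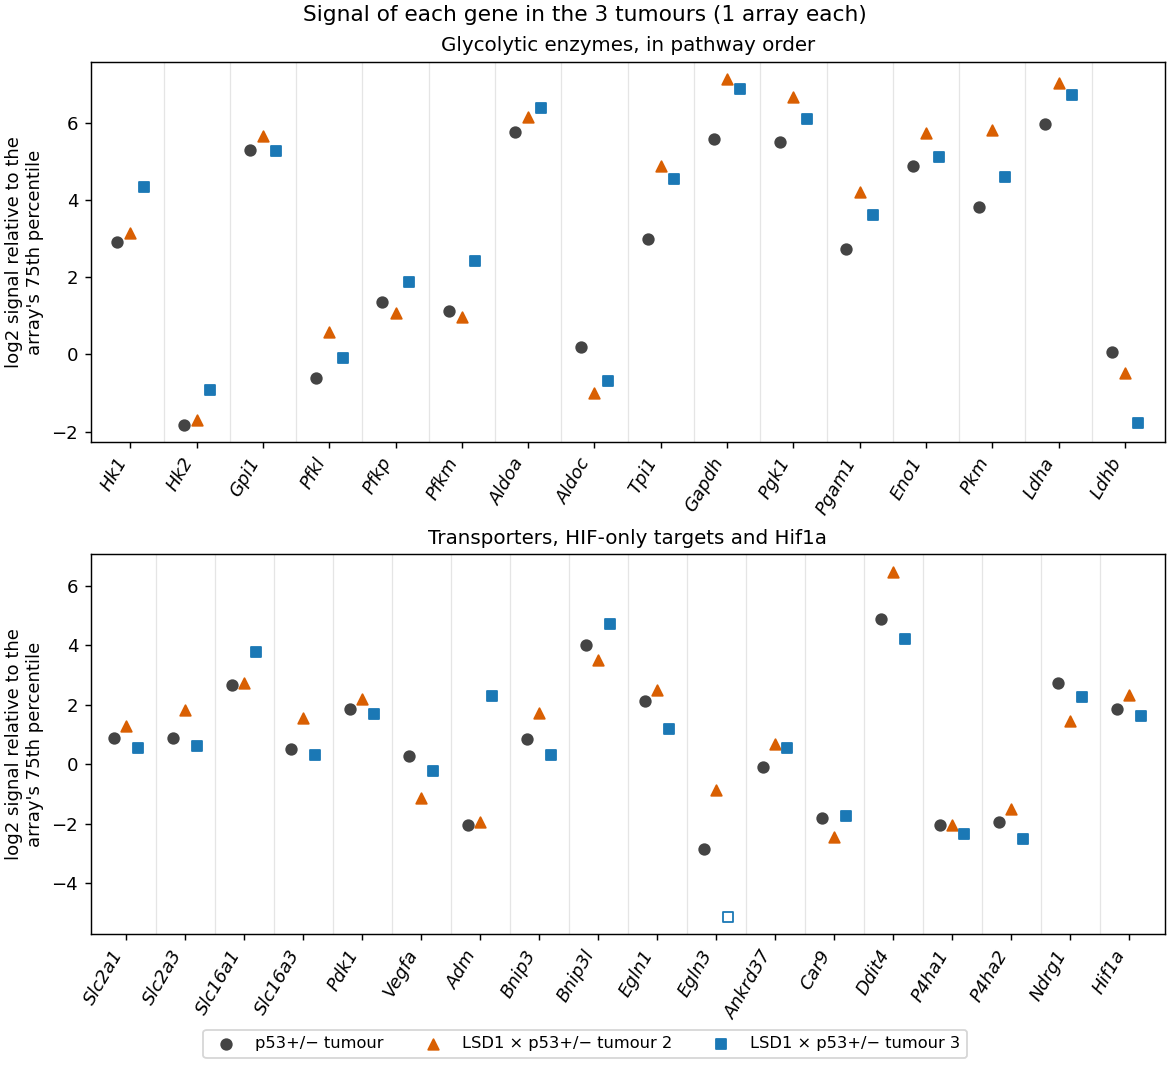
Log2 signal relative to the array's 75th percentile (vertical axis) for the 16 glycolytic enzymes in pathway order (top) and the other 18 genes (bottom) in the p53+/− tumour (circles), tumour #2 (triangles) and tumour #3 (squares), 1 array each, with an open symbol where the probe was not well above background. From Tpi1 to Ldha both LSD1 tumours lie above the p53 tumour, while for Egln3 tumour #2 lies at -0.86 and tumour #3 is not well above background.

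Promoter sequences of some of these genes are shown because the HIF core lies in promoters of both classes of gene. RefSeq windows of 250 bases before to 50 bases after the start of transcription (GRCm38.p6) were available for 31 of the 34 genes, in 44 windows, since some genes have several starts. Both strands were searched for ACGTG and GCGTG. At least 1 of these motifs lay in 81.8% of the windows of the 34 genes and in 43.8% of all 32851 windows. For ACGTG alone the shares were 56.8% and 19.6%, with 44.4% for the enzymes and 69.2% for the HIF-only targets. HIF targets were known for such motifs when the list was drawn up, so this share describes the list. CACGTG, the E-box that MYC binds and which holds ACGTG on both strands, lay in 11.4% of the members' windows and 7.15% of all. The windows of Tpi1 (the enzyme with the highest mean difference), Pgk1 and Ldha are set beside those of 3 HIF-only targets, with ACGTG and GCGTG on either strand in capitals.

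Tpi1: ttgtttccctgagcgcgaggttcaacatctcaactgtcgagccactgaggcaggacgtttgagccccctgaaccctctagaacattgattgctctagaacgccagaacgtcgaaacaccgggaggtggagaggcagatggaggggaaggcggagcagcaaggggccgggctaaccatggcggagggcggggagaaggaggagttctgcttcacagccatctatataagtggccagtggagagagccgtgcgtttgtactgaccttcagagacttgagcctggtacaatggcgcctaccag

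Pgk1: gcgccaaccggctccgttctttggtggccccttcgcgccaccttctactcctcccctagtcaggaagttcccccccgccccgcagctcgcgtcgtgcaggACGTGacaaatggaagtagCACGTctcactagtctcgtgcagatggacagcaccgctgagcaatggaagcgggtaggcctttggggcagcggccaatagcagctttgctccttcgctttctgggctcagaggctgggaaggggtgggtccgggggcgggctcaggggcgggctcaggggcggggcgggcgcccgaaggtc

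Ldha: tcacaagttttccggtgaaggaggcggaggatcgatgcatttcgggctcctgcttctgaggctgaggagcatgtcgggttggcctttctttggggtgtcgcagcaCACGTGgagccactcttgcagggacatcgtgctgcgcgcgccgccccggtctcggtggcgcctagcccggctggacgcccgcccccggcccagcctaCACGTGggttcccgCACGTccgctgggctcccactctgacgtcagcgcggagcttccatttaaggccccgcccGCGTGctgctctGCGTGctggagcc

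Ankrd37: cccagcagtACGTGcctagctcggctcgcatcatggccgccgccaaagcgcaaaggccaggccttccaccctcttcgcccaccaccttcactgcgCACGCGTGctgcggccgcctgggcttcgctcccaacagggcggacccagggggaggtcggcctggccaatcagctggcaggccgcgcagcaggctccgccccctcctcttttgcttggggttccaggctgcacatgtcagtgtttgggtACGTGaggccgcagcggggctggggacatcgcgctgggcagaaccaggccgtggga

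Egln3: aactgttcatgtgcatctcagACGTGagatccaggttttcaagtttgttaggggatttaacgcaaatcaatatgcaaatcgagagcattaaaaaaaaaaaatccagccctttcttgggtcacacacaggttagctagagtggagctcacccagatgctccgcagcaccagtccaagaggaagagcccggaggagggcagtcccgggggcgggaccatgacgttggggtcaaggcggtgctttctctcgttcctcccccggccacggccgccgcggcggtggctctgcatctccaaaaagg

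Ddit4: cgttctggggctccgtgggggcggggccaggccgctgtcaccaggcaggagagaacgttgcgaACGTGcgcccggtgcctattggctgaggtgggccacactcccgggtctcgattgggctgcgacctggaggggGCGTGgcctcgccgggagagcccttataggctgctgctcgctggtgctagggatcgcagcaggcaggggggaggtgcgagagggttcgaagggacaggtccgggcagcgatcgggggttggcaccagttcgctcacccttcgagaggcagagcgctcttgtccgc

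The positions are chr6:124814109-124814408 (minus strand) for Tpi1, chrX:106186850-106187149 (plus strand) for Pgk1, chr7:46845554-46845853 (plus strand) for Ldha, chr8:45999801-46000100 (minus strand) for Ankrd37, chr12:54203825-54204124 (minus strand) for Egln3 and chr10:59951721-59952020 (minus strand) for Ddit4. The Tpi1 window held neither motif, as was also the case for Gpi1, which says only that these letters are not in these windows. The Pgk1 window held ACGTG at positions -150 and -131 from the start, either strand counted. The Ldha window held CACGTG at -145 and -48. The second Ldha window had GCGTG only. The windows of Ankrd37, Egln3 and Ddit4 all held ACGTG. Ankrd37 was above the p53 tumour in both LSD1 tumours, whereas Egln3 and Ddit4 were above it in tumour #2 and below it in tumour #3. A match to these letters describes the sequence and shows no binding.

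Transporters move glucose in and lactate out. Slc2a1, which encodes the glucose transporter GLUT1, had levels of 0.88 in the p53 tumour, 1.30 in tumour #2 and 0.57 in tumour #3. Slc2a3, encoding the high-affinity transporter GLUT3, had levels of 0.88, 1.83 and 0.62. Slc16a3, encoding the lactate exporter MCT4, had levels of 0.52, 1.55 and 0.33. These 3 were all highest in tumour #2 and lowest in tumour #3, although in tumour #3 Slc16a3 lay above the p53 tumour with median centring and Slc2a3 with the mean over probes. Slc16a1, encoding MCT1, which carries lactate in either direction, had levels of 2.67, 2.72 and 3.76. It was 2.13-fold higher in tumour #3 and close to the p53 level in tumour #2, and it turned in the latter under quantile normalization or the authors' scaling. In tumour #3, Tpi1 to Ldha and the transporter Slc16a1 were thus above the p53 tumour while Slc2a1, Slc2a3 and Slc16a3 were below it. The latter were lower by 1.24-fold, 1.20-fold and 1.14-fold only. Eno1 turned in tumour #3 under quantile normalization or the authors' scaling.

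Hif1a itself had levels of 1.85, 2.32 and 1.62 (1.39-fold higher and 1.17-fold lower), a mean difference of 0.12 ± 0.49 (SD, n = 2). Its mRNA does not report the stability of the protein. The prolyl hydroxylases that mark HIF for destruction are themselves HIF targets. Egln1, which encodes PHD2, had levels of 2.14, 2.49 and 1.19. Egln3, which encodes PHD3, had a level of -2.86 in the p53 tumour and -0.86 in tumour #2 (3.98-fold higher) and was not well above background in tumour #3. There it was at least 2.02-fold lower than in the p53 tumour and at least 8.02-fold lower than in tumour #2. A fold given as "at least" is set against the lowest signal well above background on the dim array. Both hydroxylases were thus highest in tumour #2 and lowest in tumour #3.

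Genes that limit growth or mitochondrial mass under stress came next. Ddit4, an inhibitor of mTORC1 that also answers to p53 and glucocorticoids, had levels of 4.90, 6.47 and 4.21, which lay 2.98-fold above and 1.61-fold below the p53 tumour. Bnip3, a mitophagy receptor, had levels of 0.85, 1.74 and 0.32 and was 1.85-fold higher and 1.45-fold lower. Bnip3l, its paralog, which also clears mitochondria from maturing red cells, had levels of 4.01, 3.49 and 4.70. The paralogs thus differed from the p53 tumour in opposite directions in each LSD1 tumour. Pdk1, which keeps pyruvate out of mitochondria, had levels of 1.87, 2.20 and 1.70, and its direction in tumour #3 turned with median centring.

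Among genes for secreted factors, Adm was higher and Vegfa lower in both LSD1 tumours. Adm, encoding the vasodilator peptide adrenomedullin, had levels of -2.04 in the p53 tumour, -1.94 in tumour #2 and 2.29 in tumour #3. It was 20.1-fold higher in tumour #3, the largest difference from the p53 tumour among the 34 genes, and within 1.08-fold of the p53 tumour in tumour #2, where it was lower in the authors' value table. Vegfa, the main growth factor of blood vessels, had levels of 0.28, -1.12 and -0.21 and was 2.65-fold and 1.40-fold lower. Ndrg1, a stress response gene induced by hypoxia and by iron depletion, had levels of 2.72, 1.46 and 2.25 and was 2.40-fold and 1.38-fold lower. Vegfa and Ndrg1 were the only HIF-only targets lower in both LSD1 tumours, to which the authors' value table added P4ha1 and Car9 by its scaling of each array.

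The remaining HIF-only targets differed by under 2-fold from the p53 tumour in both LSD1 tumours. Ankrd37, a small ankyrin repeat gene, had levels of -0.10, 0.68 and 0.53 and was higher in both, by 1.71-fold and 1.55-fold (0.71 ± 0.10, SD, n = 2). Car9, encoding the cell surface carbonic anhydrase that exports acid, had levels of -1.79, -2.42 and -1.74, and its 1.03-fold difference in tumour #3 turned in the authors' value table. P4ha1 and P4ha2 encode catalytic subunits of collagen prolyl hydroxylase. P4ha1 had levels of -2.04, -2.02 and -2.35, and P4ha2 had levels of -1.93, -1.50 and -2.52. Both were highest in tumour #2 and lowest in tumour #3, but the 1.02-fold difference of P4ha1 in tumour #2 turned in the authors' value table and that in tumour #3 with the mean over probes.

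**Figure D3:**
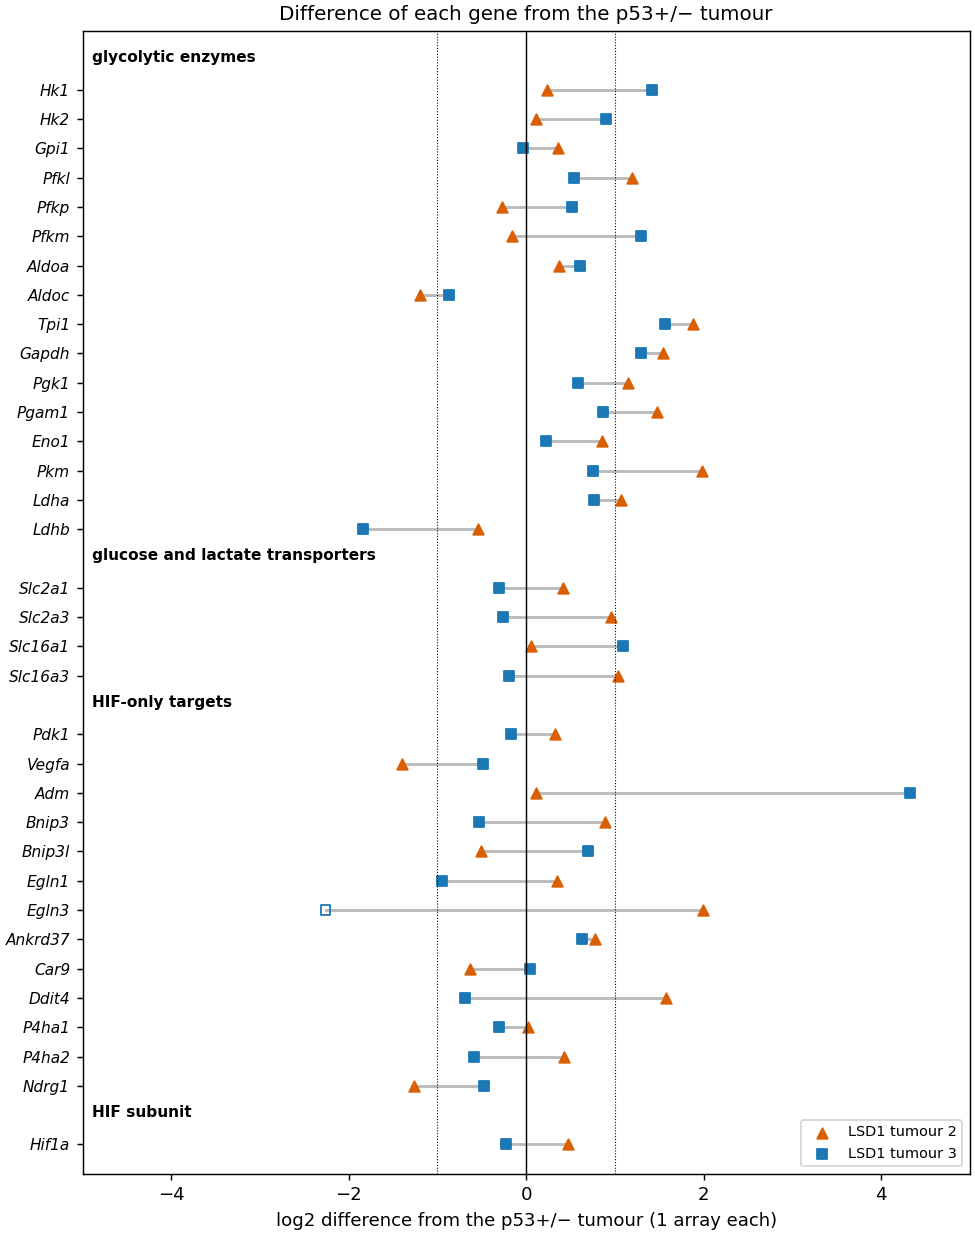
Log2 difference of each of the 34 genes from the p53+/− tumour (horizontal axis) in tumour #2 (triangles) and tumour #3 (squares), 1 array each, joined by a grey bar, with dotted lines at 2-fold and an open square where the probe was not well above background. Bars on the enzymes from Tpi1 to Ldha stay right of 0, whereas those on Egln3 and Ddit4 cross it and that on Adm reaches 4.33.

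Several of these genes differed by at least 2-fold between the LSD1 tumours themselves. Of the 34, 9 were at least 2-fold higher in tumour #2 than in tumour #3 (26.5%, against 11.1% of all genes tested) and 5 were at least 2-fold higher in tumour #3 (14.7% against 14.0%). The 9 were the enzymes Pkm and Ldhb, the transporters Slc2a3 and Slc16a3, and the HIF-only targets Egln3, Ddit4, Bnip3, Egln1 and P4ha2. The 5 were Hk1, Pfkm, Slc16a1, Adm and Bnip3l. Tumour #2 was on slide 2 and scan 2, while the p53 tumour and tumour #3 shared slide 1 and scan 1. Tumour and slide thus cannot be told apart in this contrast, nor in any difference of tumour #2 from the p53 tumour. Within slide 1, tumour #3 differed from the p53 tumour by the values given above for it.

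The arrays carried several probes for part of the genes, which shows how far a value depends on the probe. A total of 13 genes had more than 1 probe above background on all 3 arrays. All probes of a gene gave the same direction for 11 of the 13 in tumour #2 and for 12 of the 13 in tumour #3. The exceptions were Pdk1 in both tumours and Car9 in tumour #2, where its probes gave -0.63 and 0.73. The 6 Gapdh probes gave between 1.22 and 1.88 in tumour #2 and between 0.90 and 1.40 in tumour #3, and the 3 Tpi1 probes gave between 1.89 and 2.19 and between 1.57 and 1.79. The other probe of Slc2a3 was above background in tumour #3 alone. The brightest Pgam1 probe was printed 10 times per array, and its spots had an SD of 0.04 to 0.06 log2 units within an array. The spots of the Aldoc probe used here had an SD of 0.07 to 0.08, and those of its dimmer probe an SD of 0.11 to 0.18. These SDs cover technical error within an array and not the spread between animals. Glycolytic enzyme genes such as Gapdh are known for processed pseudogenes, and whether signal from such copies entered these probes was not tested.

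**Figure D4:**
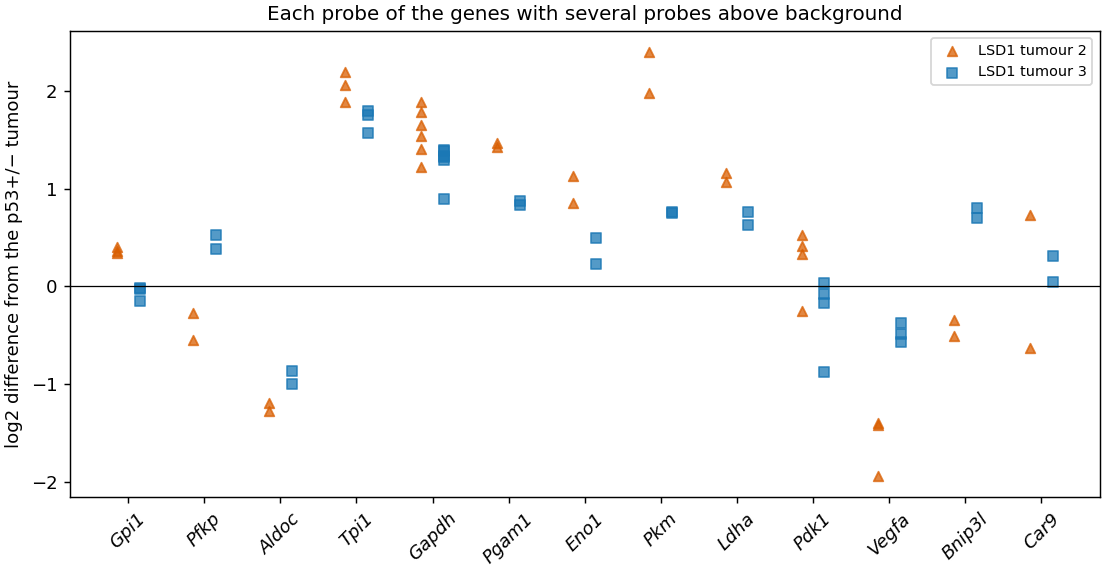
Log2 difference from the p53+/− tumour (vertical axis) given by each probe above background on all 3 arrays, for the 13 genes with several such probes, in tumour #2 (triangles) and tumour #3 (squares). The 6 Gapdh and 3 Tpi1 probes all lie above 0 in both tumours, and the Car9 probes lie on both sides of 0 in tumour #2.

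Neighbouring pathways were read from lists that had been drawn up alongside the 34 genes, and none of their genes passed limma at an adjusted p of 0.05. Among other genes of glycolysis, 19 of 27 were tested, with medians of -0.13 and 0.62, and 6 exceeded the p53 tumour in both LSD1 tumours while 4 lay below it in both. Their shares were 31.6% and 21.1%, against 38.9% and 27.8% of all genes, and in the authors' value table the counts were 4 and 4. Pgam2, the muscle mutase, was 1.61-fold and 3.56-fold higher, and Pgm1, a phosphoglucomutase, 2.68-fold and 1.39-fold higher. Eno3, the muscle enolase, was 2.38-fold and 1.64-fold lower. Gapdhs, the sperm isoform, was above background in tumour #3 alone (at least 2.40-fold).

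Among 34 further tested genes of the HIF pathway and its targets, 11 exceeded the p53 tumour in both LSD1 tumours and 9 lay below it in both, with medians of 0.28 and 0.07. These shares, 32.4% and 26.5%, were near those of all genes (38.9% and 27.8%). In the authors' value table the counts were 7 and 12. Ak4, a mitochondrial adenylate kinase, was not above background in the p53 tumour and was at least 11.9-fold and 1.73-fold higher. Hif3a, which encodes a further alpha subunit, was 4.46-fold and 2.63-fold higher. Mif, a cytokine, was 3.38-fold and 2.55-fold higher. Flt1, a VEGF receptor of endothelium and of monocytes, was 3.38-fold and 2.69-fold lower, in the same direction as its ligand gene Vegfa.

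The routes that branch from glycolysis come next. In the pentose phosphate pathway, 4 of 7 genes were higher in both LSD1 tumours and none was lower in both (medians 0.12 and 0.57), against 38.9% and 27.8% of all genes. In the authors' value table, the number higher in both was 2 of 7. Its 4 genes of largest mean difference were Rpe (2.27-fold and 1.25-fold higher), Rpia (1.09-fold and 2.31-fold), Pgd (1.57-fold and 1.48-fold) and Tkt (1.28-fold and 1.57-fold). The smaller value of Rpe and of Rpia turned in the authors' value table. Among 14 genes of pyruvate entry to mitochondria, 9 were higher and 1 was lower in both (medians 0.31 and 0.42), shares of 64.3% and 7.14% against the same shares of all genes. In the authors' value table, 6 were higher and 4 lower in both, and the shares of all genes were not counted there. Pdk3, a pyruvate dehydrogenase kinase, was 2.20-fold and 2.61-fold higher, and Dld and Mpc2, of pyruvate oxidation and import, were higher too. Dld differed by 1.70-fold and 1.80-fold and Mpc2 by 1.39-fold and 1.99-fold. Pdk4, the kinase induced by fasting, lay 1.54-fold above the p53 tumour in tumour #2 and at least 3.71-fold below it in tumour #3.

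Among 16 regulators, 5 exceeded the p53 tumour in both LSD1 tumours and 6 lay below it in both (medians -0.15 and 0.20). Their shares were 31.2% and 37.5%, against 38.9% and 27.8% of all genes. The counts became 3 and 9 with quantile normalization and 1 and 9 in the authors' value table. Myc, whose product activates Ldha and other glycolytic genes, was 4.10-fold and 2.16-fold higher. Mycn, its relative of immature cells, was 3.24-fold and 2.01-fold lower, and Mlxip, a glucose sensor, 1.35-fold and 1.77-fold lower. Ppargc1a, a coactivator of mitochondrial genes, was at least 1.16-fold and 1.17-fold lower. Kdm1a was 1.56-fold and 1.17-fold higher, the latter turning under quantile normalization or the authors' scaling, and Trp53 was 1.51-fold and 1.23-fold lower.

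Signals of cell type and proliferation marker genes also differed between the 3 tumours, and any link to the results above was not tested. In RNA from whole cell mixtures, fewer cells of a type and less RNA per cell cannot be told apart. The 14 genes of the G2 and mitosis list all had higher signal in the LSD1 tumours, with medians of 0.89 and 1.73 and summed signals of 122.6, 193.0 and 378.7 in the p53 tumour and tumours #2 and #3 (in units of the array's 75th percentile). Their sum was highest in tumour #3. Of the 16 glycolytic enzymes, 5 were highest in tumour #3 (Hk1, Hk2, Pfkp, Pfkm and Aldoa), 9 in tumour #2 and 2 in the p53 tumour. The matching split of all genes was not counted. Of 15 erythroid genes, 13 were below the p53 tumour in tumour #2 but 0 in tumour #3 (medians -0.25 in #2 and 1.55 in #3, summed signals 940.7, 660.4 and 1384.2). The order of the erythroid sum, highest in tumour #3 and lowest in tumour #2, was shown by Pfkp, Pfkm, Bnip3l and Car9. These were 4 of the 34 genes (11.8%, against 19.3% of all genes tested). Of 12 T cell genes, 1 was below the p53 tumour in tumour #2 but 12 in tumour #3 (medians 1.58 and -1.36, summed signals 102.4, 283.1 and 53.2). The T cell sum was highest in tumour #2 and lowest in tumour #3. That order was shown by 12 of the 34 genes (35.3%, against 14.1% of all genes tested). These were Gpi1, Slc2a1, Slc2a3, Slc16a3, Hif1a and the HIF-only targets Pdk1, Bnip3, Egln1, Egln3, Ddit4, P4ha1 and P4ha2.

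The other marker lists are given as measured. All 10 B cell genes were lower in both (summed signals 269.7, 40.4 and 142.3), with Fcer2a not above background in tumour #3. Of 12 neutrophil genes, 9 were higher and 3 lower in both (summed signals 259.6, 406.5 and 371.9). Of 12 macrophage genes, 2 were higher and 5 lower in both (254.5, 217.5 and 216.5). Of 7 endothelial genes, 6 were lower in both (16.2, 8.7 and 11.6), the direction also seen for Vegfa and Flt1, and any link was not tested. NK cell signals summed to 37.7, 23.6 and 16.5, with Ncr1 not above background in either LSD1 tumour. Dendritic cell signals summed to 167.2, 141.5 and 128.6, with Xcr1 and Cd209a not above background there. Platelet genes summed to 27.0, 22.3 and 30.6 and the 6 tested stromal genes to 29.5, 18.7 and 9.4. Immediate early genes, which respond to tissue handling, summed to 21.0, 13.0 and 15.8, with 4 of 8 lower and 0 higher in both LSD1 tumours. All 12 T cell, 12 macrophage and 15 erythroid genes and 9 of 10 B cell genes were above background on all 3 arrays, so the RNA held defining markers of splenic cell types.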

How the data were processed

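The files were the scanner output of 1-colour Agilent arrays, 1 per tumour, from Agilent Feature Extraction 11.5.1.1 per the submitters' processing notes. The deposited signal column is an intensity from which that software, per the file headers, had removed local background and spatial trend, array by array and with no scaling between them. A second table held intensities that the authors had multiplied by 1 factor per array (1.06, 0.779 and 0.902), worked out by dividing it by the scanner values, and the basis of those factors is not given in the sources used here. Control and outlier spots were dropped, signals were divided by the array's 75th percentile (608, 712 and 554) and spots of a probe were averaged as log2 values. RefSeq accessions named 32994 of 56605 probes through a gene table of GRCm38.p6. A gene took its brightest probe, and 15240 genes above background on at least 1 array were fitted with limma 3.58.1 in R 4.3.3 (lmFit, eBayes, Benjamini-Hochberg adjustment over all 15240, 1 residual degree of freedom), steps that were tested on simulated data. "At least 2-fold" also required the brighter side to be above background. Alternatives were normexp (offset 50), quantile normalization, median centring, the authors' table, other filters, the mean over probes, slide as a block and leaving out either LSD1 tumour. The members and lists were chosen with earlier results of these data known. All 34 members are named, and of each neighbouring pathway the 4 genes with the largest mean difference, with Kdm1a and Trp53. Where a few members are singled out by tumour or by order, they were chosen after their values were seen. The limma p-values rest on the spread between the 2 LSD1 arrays and on a variance that eBayes draws from all genes. The p53 array adds nothing to that spread. The labels do not say whether the LSD1 tumours came from separate animals, so it may not be a spread between animals.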

Additional observations from a re-analysis of the deposited data

How the results depend on the processing

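In the 7 alternatives that allow a fit, limma again called 0 of the 34 genes at an adjusted p of 0.05. The median difference of glycolytic enzymes (0.70 over both LSD1 tumours) was above 0 throughout, at 0.64 with normexp, 0.53 with quantile normalization, 0.82 with median centring, 0.41 in the authors' value table and 0.75 with the mean over probes, and between 0.61 and 0.68 without tumour #3 or #2. In tumour #2 alone it was 0.73, 0.33, 0.40 and 0.68 with normexp, quantile normalization, the authors' table and the mean over probes. In tumour #3 it was 0.59 with normexp, 0.37 with quantile normalization, 0.87 with median centring and 0.32 in the authors' table. The authors' scaling moved the median of all genes to -0.16 and -0.20. The HIF-only median (-0.08) lay between -0.37 and 0.11 and, without tumour #2 or #3, at -0.47 and 0.33. The enzyme median exceeded it under every setting, by 0.29 to 1.15 when either LSD1 tumour was left out. The count of genes at least 2-fold higher in both (2) was 1 with quantile normalization and in the authors' table, 3 with median centring and with the mean over probes, 6 to 10 with 1 LSD1 tumour left out and 6 with slide as a block. The count at least 2-fold lower in both was 0, but 1 in the authors' table, 2 to 3 with 1 LSD1 tumour left out and 2 with slide as a block. Leaving out a tumour or blocking on slide leaves no residual degree of freedom, so no test was run there, and "both" then means the 1 LSD1 tumour that remains. The authors' table and median centring shift every gene of an array by 1 constant, and their changed medians and counts come from that shift. Under both, the enzyme median stayed 0.29 above the HIF-only median in tumour #2 and 1.15 above it in tumour #3. The cause of the remaining changes was not tested.

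Mean differences near 0 turned sign. With quantile normalization these were Gpi1 (-0.25), Pfkp (-0.0083), Slc2a1 (-0.039), Pdk1 (-0.10), Bnip3l (-0.26), P4ha2 (0.021) and Hif1a (-0.047). In the authors' table they were Gpi1 (-0.13), Pfkp (-0.17), Slc2a1 (-0.24), Pdk1 (-0.21), Bnip3 (-0.12), Bnip3l (-0.20) and Hif1a (-0.17). Egln3 turned with normexp (0.29), P4ha2 with median centring (0.038), and Pdk1 (-0.010), Car9 (0.11) and P4ha1 (0.37) with the mean over probes. No paired analysis was possible because the labels number the LSD1 tumours alone. Dim probes such as Egln3 in tumour #3 allow only bounds, and 3 arrays limit the precision of every value.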
